A study of Homo sapiens with 6 samples.

Results

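The genes described are 10 members of the human tetraspanin family, TSPAN8, TSPAN1, TSPAN3, TSPAN14, TSPAN15, CD9, CD81, CD63, CD82 and CD151. They were chosen by gene name from the 58735 genes of the deposited count table, with the differences between treated and control libraries already known. Their treated-control differences are therefore a description. No p-value is given for them, and where the fit over all genes placed them past its threshold this is reported without reading anything from it. The libraries are polyadenylated RNA of SW1990, an established line of human pancreatic ductal adenocarcinoma cells, in 3 treated and 3 control samples. Treated cells (EPZ-1, EPZ-2 and EPZ-3) received 5 µM EPZ-5676, a small-molecule inhibitor of the histone methyltransferase DOT1L. Control cells (NC-1, NC-2 and NC-3) are called untreated in the sample characteristics, whereas the treatment protocol gives them DMSO, the solvent, in equal volume. How long the cells were exposed is not stated in the labels, all samples are of 1 cell line, and no allele or transgene is named. The series set out to find genes whose expression differs under the inhibitor.

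Tetraspanins are small proteins that cross the plasma membrane several times and gather integrins, immunoglobulin-family proteins and proteases into membrane patches. CD9, CD63 and CD81 are widely used as markers of extracellular vesicles, which form partly in multivesicular endosomes. TSPAN8 is a tetraspanin of digestive-tract and pancreatic tumours, where it is known for its association with EPCAM, claudin-7 and integrins and for its presence on exosomes. DOT1L places methyl groups on a lysine in the core of histone H3, a mark found along transcribed genes.

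The treated libraries held 33970420 to 39749648 reads assigned to genes and the control libraries 35042563 to 38132352. Levels are given as CPM (read counts relative to library size), scaled between libraries by the trimmed mean of M values (TMM). Of the genes in the table, 15496 passed the filter on low counts, all 10 tetraspanins among them. The labels do not state whether the replicates were grown as separate cultures. The p-values therefore weigh differences only against the spread of these 6 samples, and that spread may be technical. Of 8 epithelial and ductal markers, KRT8, KRT7, KRT18, CLDN4 and MUC1 were present in all 6 libraries, whereas EPCAM reached at most 2.59 CPM, KRT19 stayed under 1 CPM and CDH1 was at 0 reads in all 6. The summed level of these 8 was 6654 to 8476 CPM in treated and 5455 to 6265 CPM in control libraries. This sum is mostly KRT8, KRT7 and KRT18, with means of 3430, 2258 and 1493 CPM in treated and 2658, 1883 and 1194 CPM in control libraries. Their log2 fold changes were 0.37, 0.26 and 0.32, and 0.13, -0.15 and 0.10 with the GC and length correction described below. Of 12 mesenchymal, blood and endothelial markers, 6 stayed under 1 CPM in every library, and their sum was 93.1 to 102 CPM in treated and 82.1 to 98.3 CPM in control libraries. COL1A1 was among the exceptions, at 56.3 to 64.6 CPM in treated and 35.9 to 50.8 CPM in control libraries, and DCN was at 23.3 to 25.9 CPM in treated and 27.2 to 37.2 CPM in control libraries. The epithelial and ductal markers were thus not all present, and whether the cells match the line named in the labels was not tested. The part of these markers in the differences below was not tested either.

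Per unit of gene length, the 10 genes spanned a wide range of levels, and with the table's gene length their order was the same in both groups. CD63 was the most abundant, at 1328 ± 60.9 TPM (read counts relative to gene length and library size) in treated and 1289 ± 32.9 TPM in control cells (SD, n = 3 each, as for all TPM here). It made up 55.8% of the TPM of all 33 family genes in treated and 55.7% in control cells. CD9 had 285 ± 21.7 TPM in treated and 300.1 ± 8.23 TPM in control cells. CD151 had 275 ± 6.02 TPM in treated and 236 ± 11.9 TPM in control cells, and the CD9 and CD151 ranges overlapped in treated cells but not in controls. All other neighbours in the order kept separate ranges within each group.

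CD81 had 101 ± 3.23 TPM in treated and 85.1 ± 8.18 TPM in control cells. TSPAN15 had 60.5 ± 1.92 TPM in treated and 51.0 ± 2.38 TPM in control cells. TSPAN3 had 31.8 ± 3.55 TPM in treated and 34.3 ± 2.52 TPM in control cells. Below these came the less abundant members. TSPAN1 had 18.0 ± 1.12 TPM in treated and 21.3 ± 0.976 TPM in control cells. CD82 had 16.0 ± 0.770 TPM in treated and 14.5 ± 1.08 TPM in control cells. TSPAN14 had 10.5 ± 0.573 TPM in treated and 12.4 ± 0.764 TPM in control cells. TSPAN8 was lowest of the 10, with 3.99 ± 0.860 TPM in treated and 10.2 ± 0.430 TPM in control cells. It ranked 19 in the family in treated and 14 in control cells, and 41.5% of the tested genes lay below it in treated and 55.4% in control cells. On this scale the groups of TSPAN1 and of TSPAN14 did not overlap, treated cells being lower, whereas in TMM-scaled CPM both overlapped. The groups of CD82 overlapped in TPM, at 15.2 to 16.7 in treated and 13.5 to 15.7 in control cells, but not in TMM-scaled CPM. The order of these less abundant members depended on the length used. With the longest GENCODE transcript in place of the table's gene length, TSPAN8 had 11.99 TPM and TSPAN14 9.72 TPM in control cells. With that length CD82 lay above TSPAN1 in treated cells, at 20.1 and 18.8 TPM, and below it in control cells, at 18.2 and 22.2 TPM, so the order then differed between the groups.

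**Figure D1:**
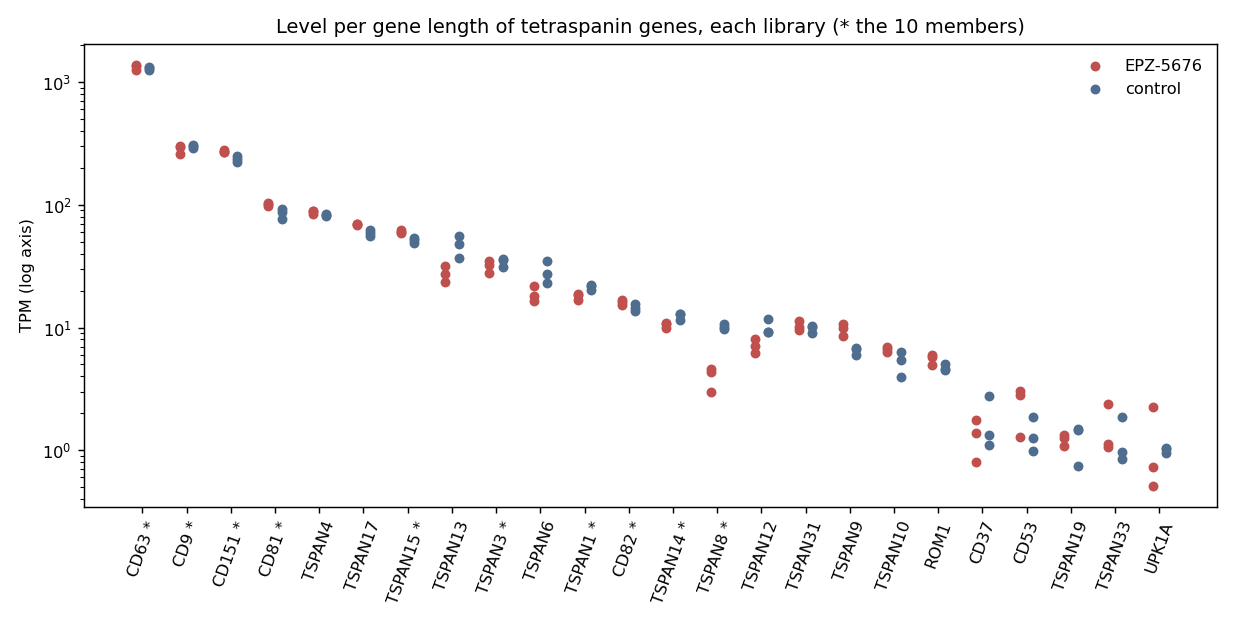
Level per gene length of tetraspanin genes in each library, in TPM on a log axis, treated (red) left of control (blue), with an asterisk on the 10 genes described. Family genes with a lower control mean than UPK1A, at 1.01 TPM, are not drawn. CD63 stands highest in both groups, and the TSPAN8 points lie lower in treated than in control cells, with means of 3.99 and 10.2 TPM.

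TSPAN8 (ENSG00000127324, GRCh38 chr12:71125085-71441898, minus strand) had 4.25, 2.48 and 3.59 CPM in EPZ-1 to EPZ-3, against 8.20, 8.33 and 7.42 CPM in NC-1 to NC-3. All treated libraries lay below all controls, and EPZ-2 was the lowest. Behind these values stood 132, 87 and 142 reads in treated libraries and 326, 291 and 277 reads in control libraries. The means were 3.44 ± 0.894 CPM in treated and 7.98 ± 0.489 CPM in control cells (SD, n = 3 each, as for all CPM means here), and the log2 fold change was -1.22 ± 0.23 (SE from the edgeR fit, as for all log2 fold changes here). In bulk RNA, fewer cells that express a gene and less RNA per cell cannot be told apart.

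The RefSeq promoter window runs from 250 bases before to 50 bases after a RefSeq start. A RefSeq window was matched for 7 of the 10 genes (build GRCh38.p14); TSPAN3, CD81 and CD151 had no entry. TSPAN8 is shown because its level was lowest in treated relative to control cells. With it are TSPAN1, whose groups overlapped in TMM-scaled CPM, and TSPAN15, whose treated level was higher before the correction described below. Capitals mark the dinucleotide CG, which reads the same on both strands.
TSPAN8: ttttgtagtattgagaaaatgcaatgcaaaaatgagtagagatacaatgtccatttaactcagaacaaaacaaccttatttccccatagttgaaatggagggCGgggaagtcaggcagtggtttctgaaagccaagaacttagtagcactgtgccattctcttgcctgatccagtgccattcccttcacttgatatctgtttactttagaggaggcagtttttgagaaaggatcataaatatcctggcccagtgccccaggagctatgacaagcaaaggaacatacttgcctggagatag
TSPAN1: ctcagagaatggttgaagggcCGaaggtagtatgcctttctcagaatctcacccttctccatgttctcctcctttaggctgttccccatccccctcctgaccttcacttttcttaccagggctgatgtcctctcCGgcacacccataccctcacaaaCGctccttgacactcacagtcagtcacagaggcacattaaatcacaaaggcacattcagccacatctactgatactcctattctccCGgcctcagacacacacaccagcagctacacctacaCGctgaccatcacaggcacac
TSPAN15: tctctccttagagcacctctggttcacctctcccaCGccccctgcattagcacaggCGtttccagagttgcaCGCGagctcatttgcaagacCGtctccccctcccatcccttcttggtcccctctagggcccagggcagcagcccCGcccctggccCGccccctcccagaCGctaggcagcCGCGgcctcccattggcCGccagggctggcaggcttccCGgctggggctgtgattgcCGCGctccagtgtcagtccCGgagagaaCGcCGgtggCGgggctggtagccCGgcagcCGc
The TSPAN8 window (chr12:71157950-71158249, minus strand) held 1 CG and 42.3% G or C, and 11.0% of the 35116 RefSeq windows of this length held as few. TSPAN1 (chr1:46174837-46175136, plus strand) held 5 CG, and 33.7% of windows held as few. TSPAN15 (chr10:69451215-69451514, plus strand) held 20 CG, and 60.5% of windows held as few. The median window held 14 CG. A further RefSeq start of TSPAN8 gave a window with 3 CG, and windows of the other matched genes held 1 to 53. TSPAN14, with a log2 fold change of -0.12, had windows of 53, 3 and 4 CG. CD9, at 0.04, had windows of 12, 32, 30 and 1 CG. CD63, at 0.17, had windows of 4 to 36 CG, and CD82, at 0.27, a window of 33. Both TSPAN8 windows lie inside the span of the counted gene, away from its start at 71441898 on the minus strand. Which start these cells used was not tested. No factor's binding was measured, and the counts describe only these letters.

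TSPAN1 (ENSG00000117472, chr1:46175073-46185958, plus strand), an epithelial tetraspanin found at raised levels in several carcinomas, had 16.3, 14.4 and 13.0 CPM in EPZ-1 to EPZ-3, against 16.0, 15.7 and 15.5 CPM in NC-1 to NC-3. The groups overlapped, with EPZ-1 above all controls and EPZ-2 and EPZ-3 below. Its log2 fold change was -0.11 ± 0.16. TSPAN3 (ENSG00000140391, chr15:77041404-77083984, minus strand), a broadly expressed member, had 87.2, 97.4 and 90.5 CPM in treated libraries and 94.3, 87.8 and 90.2 CPM in control libraries. Its groups interleaved, with a log2 fold change of 0.01 ± 0.10.

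TSPAN14 and TSPAN15 belong to the tetraspanins that escort the membrane protease ADAM10 and shape which substrates it cleaves. TSPAN14 (ENSG00000108219, chr10:80454166-80533123, plus strand) had 64.5, 64.1 and 62.6 CPM in treated libraries and 63.0, 75.6 and 68.9 CPM in control libraries. The groups overlapped through NC-1, and the log2 fold change was -0.12 ± 0.11. TSPAN15 (ENSG00000099282, chr10:69451473-69507669, plus strand) had 57.3, 54.4 and 51.7 CPM in treated libraries and 39.4, 46.3 and 40.9 CPM in control libraries. All treated libraries lay above all controls, with a log2 fold change of 0.37 ± 0.11.

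CD9 (ENSG00000010278, chr12:6199715-6238271, plus strand), a partner of immunoglobulin-family proteins that is needed for sperm-egg fusion in mice, had 397, 410 and 399.9 CPM in treated libraries and 388, 418 and 365 CPM in control libraries. The treated values lay inside the control range, and the log2 fold change was 0.04 ± 0.10. CD81 (ENSG00000110651, chr11:2376177-2397419, plus strand), the closest relative of CD9 in its partners and a receptor of hepatitis C virus, had 280.3, 236 and 248 CPM in treated libraries and 172, 211 and 205 CPM in control libraries. All treated libraries lay above all controls, EPZ-1 being the highest and NC-1 the lowest, with a log2 fold change of 0.38 ± 0.11.

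CD63 (ENSG00000135404, chr12:55725323-55729707, minus strand), the tetraspanin of late endosomes and lysosomes, had 1331, 1159 and 1086 CPM in treated libraries and 1044, 1140.1 and 995 CPM in control libraries. EPZ-3 lay below NC-2, so the groups overlapped, and the log2 fold change was 0.17 ± 0.11. CD82 (ENSG00000085117, chr11:44564427-44620363, plus strand), known as a suppressor of metastasis, had 23.9, 22.2 and 20.1 CPM in treated libraries and 19.4, 19.0 and 16.5 CPM in control libraries. The groups did not overlap, EPZ-3 and NC-1 lying close together, and the log2 fold change was 0.27 ± 0.15.

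CD151 (ENSG00000177697, chr11:832843-839831, plus strand), the partner of laminin-binding integrins, had 407, 351 and 349 CPM in treated libraries and 270.4, 321 and 279 CPM in control libraries. All treated libraries lay above all controls, and the log2 fold change was 0.35 ± 0.10. Its end (chr11:837356-839831) overlaps POLR2L, a subunit gene of RNA polymerases on the opposite strand. POLR2L had 122, 103 and 89.4 CPM in treated libraries and 84.9, 87.6 and 69.2 CPM in control libraries, and its reads came to 28.1% of those of CD151. The libraries marked strand, but the sources used here do not give the strand setting of the counting, so the CD151 value is uncertain by reads of POLR2L. For the other members, overlapping genes held at most 0.252% as many reads.

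**Figure D2:**
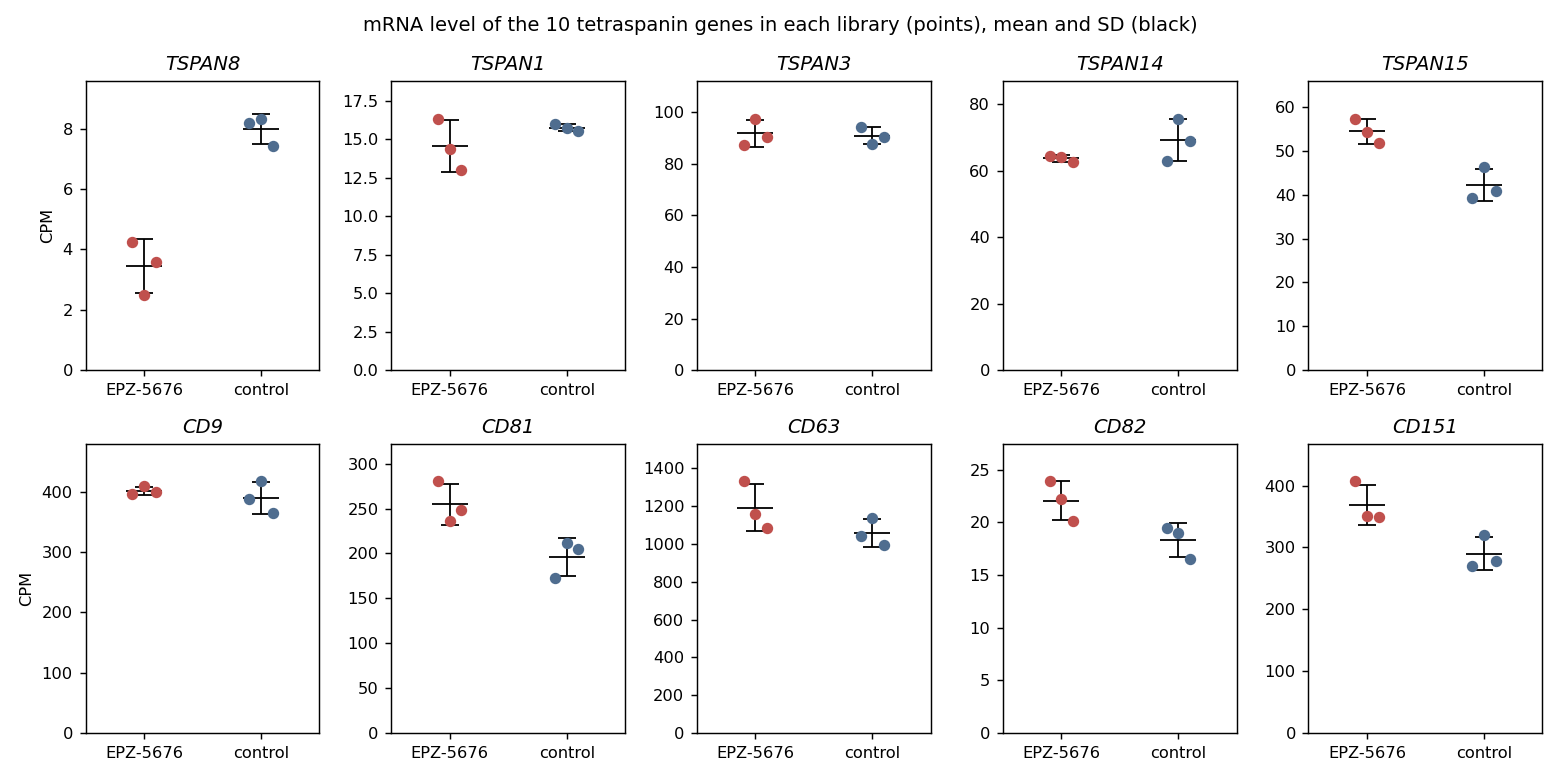
Level of each of the 10 genes in TMM-scaled CPM, 1 point per library, treated left and control right, with mean and SD in black and each axis starting at 0. TSPAN8 is separated downward, at 2.48 to 4.25 CPM in treated and 7.42 to 8.33 CPM in control libraries, and TSPAN15, CD81, CD82 and CD151 are separated upward.

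In the edgeR fit over 15496 genes, where the threshold was a Benjamini-Hochberg adjusted p under 0.05, 3 of the 10 genes (TSPAN15, CD81 and CD151) were past it and higher in treated cells, where 15.0% of all tested genes were. TSPAN8 alone was past it and lower, where 18.7% of all tested genes were. Because the members were chosen with this contrast known, nothing is read from these counts. Groups did not overlap in CPM for 4 members with higher and 1 with lower treated levels, beside 21.8% and 24.2% of all tested genes. The median log2 fold change was 0.11 over the 10 genes and -0.05 over all genes tested. Without EPZ-1 the log2 fold changes of TSPAN15, CD81 and CD151 were 0.33, 0.30 and 0.27 and none was past the threshold. Without NC-3 those of TSPAN15 and CD151 were 0.35 and 0.32 and neither was.

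Fold changes in these libraries followed the GC content of the transcripts, and the tetraspanins were read against it. The tested genes were ranked by the GC content of their longest transcript and divided into 10 groups of nearly equal size. The lowest group had a median log2 fold change of -0.58 and the highest 0.43. CD81, at 64.9% GC, and CD151, at 62.6%, belong to the highest group, and their fold changes differed from its median by -0.05 and -0.08. TSPAN15, at 57.4% GC, lay 0.10 above the median of its group. Over the 9 members other than TSPAN8, the difference from the median of genes of like GC content ran from -0.14 to 0.16. TSPAN8, at 40.9% GC, lay -0.70 from the median of its group (-0.52), and 57 of the 1549 genes in that group had a lower log2 fold change. A departure of about this size was not particular to TSPAN8 in the family. Among the other tested tetraspanins, CD53 lay 1.22, TSPAN10 0.78 and TSPAN19 0.68 above the medians of their groups, and CD37 lay -0.64 from its own. CD53, TSPAN19 and CD37 reached at most 3.78 CPM in any library.

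**Figure D3:**
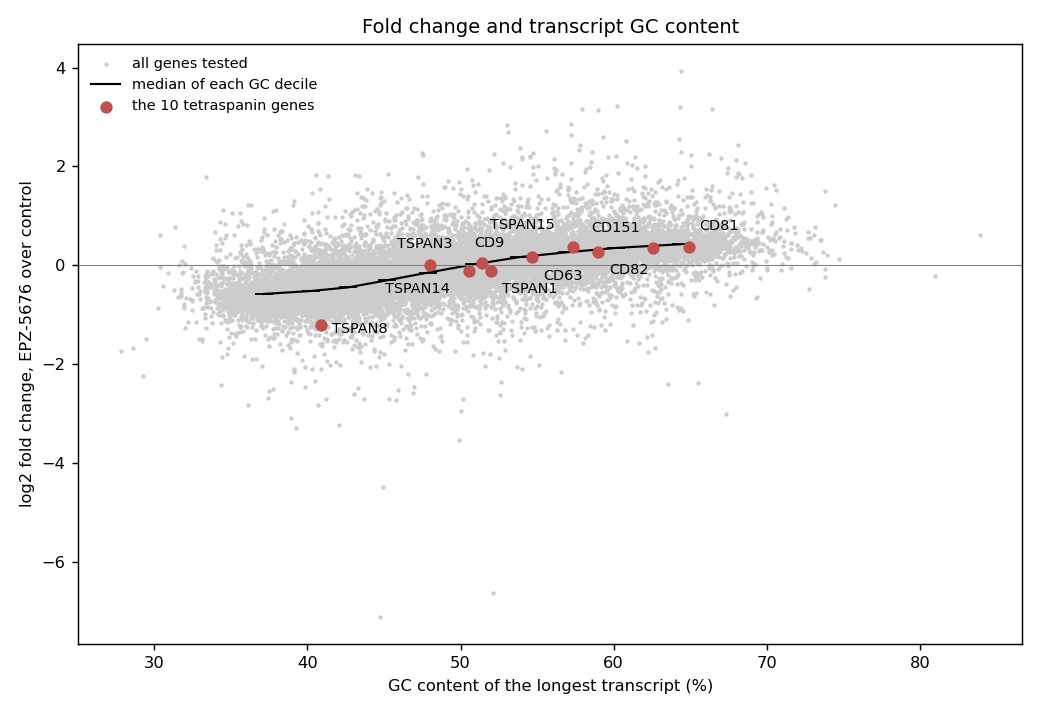
Log2 fold change, EPZ-5676 over control, against the GC content of the longest transcript (%) for all tested genes (grey), the median of each of 10 groups of genes by GC content (line) and the 10 tetraspanins (red). TSPAN8 lies -0.70 from the median of its group, and the other 9 within -0.14 to 0.16 of theirs. Tetraspanins outside these 10 are not marked.

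With the trends in GC content and transcript length removed from each library, the log2 fold change of TSPAN8 was -0.72 ± 0.23. That of TSPAN15 was 0.11 ± 0.09, that of CD81 -0.06 ± 0.07 and that of CD151 -0.05 ± 0.07. In this corrected fit 0 of the 10 genes were past the threshold and higher, where 5.40% of tested genes were, and TSPAN8 was past it and lower, where 5.58% were. TSPAN8 missed the threshold when GC content alone was corrected, at -0.73, and in the corrected fit without EPZ-2, EPZ-3, NC-1, NC-2 or NC-3, at -0.51 without EPZ-2. Such a correction removes any effect of treatment that follows GC content or length together with any technical trend, and which of these the trend holds was not tested.

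The other 23 tetraspanin genes were examined as a whole, and 15 of them passed the filter on low counts. This list and the partner and vesicle lists below were also chosen with earlier results of these data known. Their counts and p-values are therefore a description too. With edgeR's quasi-likelihood test, 2 rose and 2 fell at adjusted p under 0.05, and 11 did not pass, with a median log2 fold change of 0.21 over the 15. Of all tested genes 15.0% rose and 18.7% fell, so in this fit the counts in this list were not above those of genes in general. In the corrected fit 2 of the 15 rose and 1 fell, beside 5.40% and 5.58% of all tested genes. Nothing is read from so few genes. TSPAN9, a tetraspanin of platelets among other cells, had 21.5, 22.4 and 23.9 CPM in treated libraries and 14.0, 15.3 and 12.4 CPM in control libraries. Every treated library was above every control, and the gene rose by 0.70 ± 0.15 on the log2 scale (adjusted p = 0.00171). TSPAN17, of the group that escorts ADAM10, had 134, 116 and 118 CPM in treated libraries and 94.9, 107 and 87.9 CPM in control libraries. Its groups did not overlap, and it rose by 0.35 ± 0.11 (adjusted p = 0.0145).

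TSPAN13 had 19.3, 19.8 and 22.9 CPM in treated libraries and 37.8, 27.1 and 32.1 CPM in control libraries, without overlap. Its log2 fold change was -0.65 ± 0.15 (adjusted p = 0.00252). TSPAN6, described as a regulator of vesicle content, had 27.4, 27.0 and 32.2 CPM in treated libraries and 48.3, 34.5 and 37.0 CPM in control libraries. These groups did not overlap either, and the log2 fold change was -0.47 ± 0.14 (adjusted p = 0.0143). With the GC and length correction TSPAN9 remained past the threshold, at 0.42 ± 0.13, whereas TSPAN13, TSPAN6 and TSPAN17 had values of -0.32, 0.08 and 0.05 and did not pass. TSPAN10, of the ADAM10-escorting group, passed in the corrected fit, at 0.67 ± 0.18, and not in the uncorrected one, at 0.47 ± 0.20. It passed in 9 of the 24 alternative fits, some of them uncorrected. TSPAN4 changed sign between the fits, with -0.24 ± 0.07 in the corrected fit, past the threshold, and 0.21 ± 0.10 in the uncorrected fit, not past it. Uncorrected, 1 of the 15 rose without EPZ-1 or NC-3, where TSPAN17 missed the threshold, beside 1350 and 1592 of all genes. Without NC-2, also uncorrected, 5 rose, beside 2780 of all genes. Without EPZ-1, EPZ-2 or NC-1, where TSPAN6 missed the threshold, 1 fell, beside 1884, 2543 and 1753 of all genes. In the corrected fit TSPAN9 passed only in full and without NC-1, TSPAN10 missed the threshold without EPZ-1, EPZ-3 or NC-1, and TSPAN4 missed it when any 1 of the 6 libraries was left out.

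The remaining tested family members were TSPAN31, TSPAN12, ROM1, CD37, TSPAN19, TSPAN33, CD53, TSPAN11 and UPK1A, of which TSPAN31 was the most abundant, at 16.7 to 22.2 CPM in treated and 16.1 to 16.8 CPM in control libraries. CD37 and CD53 are leukocyte tetraspanins. CD37 had 1.09 to 2.42 CPM in treated libraries and 1.41, 3.78 and 1.66 CPM in NC-1 to NC-3, so NC-2 stood highest. In NC-2 the leukocyte gene PTPRC was also at 4.38 CPM, against 0, 0.228 and 0 CPM in EPZ-1 to EPZ-3 and 0 CPM in NC-1 and NC-3. The T-cell gene CD3E was at 0.401 CPM in NC-2 and at 0 in the other libraries, and the blood marker MS4A1 at 0.0572 CPM and 0. CD53 and the blood marker CD68 were not highest in NC-2. CD53 had 2.38, 2.00 and 0.910 CPM in EPZ-1 to EPZ-3 and 0.830, 1.32 and 0.643 CPM in NC-1 to NC-3. CD68 reached at most 0.151 CPM, in NC-1. The part of these differences in the results was not tested. The 8 genes under the filter were UPK1B, TSPAN2, TSPAN5, TSPAN32, TSPAN16, TSPAN7, TSPAN18 and PRPH2, the last 3 with 0 reads in every library.

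**Figure D4:**
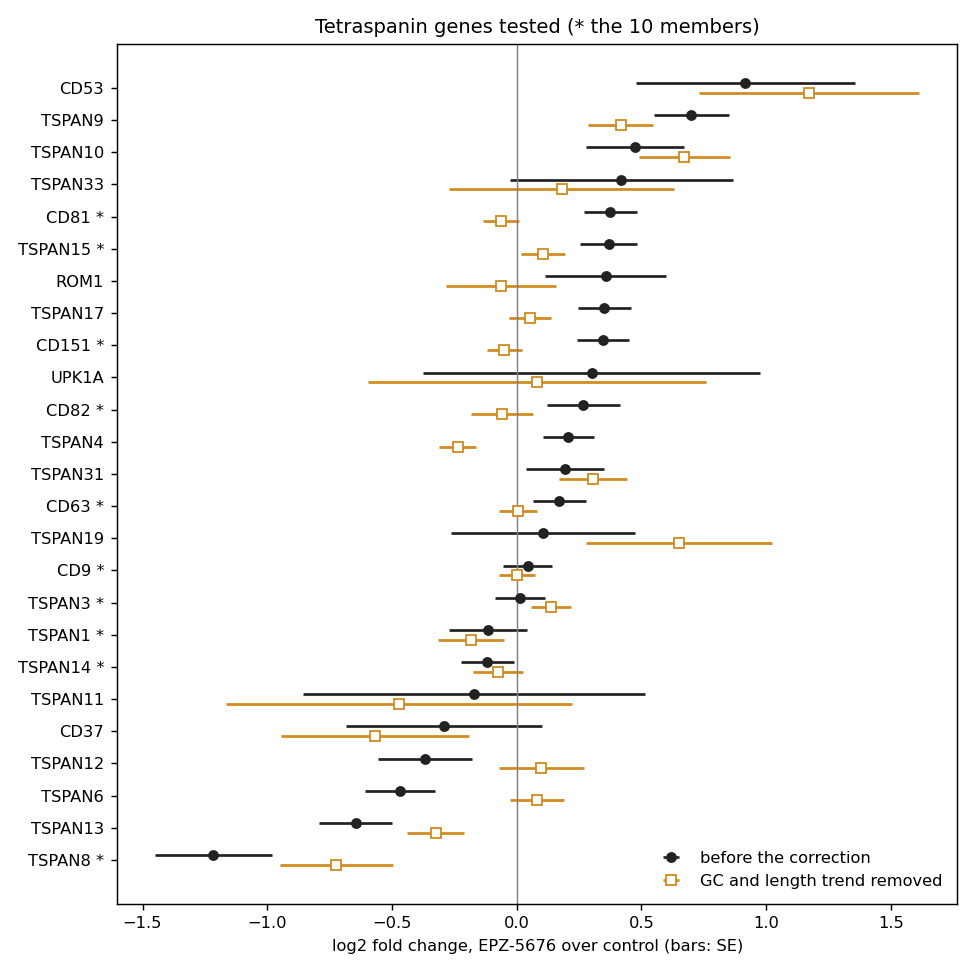
Log2 fold change, EPZ-5676 over control, of tetraspanin genes that passed the filter on low counts, with SE, before and after the GC and length correction. TSPAN8 lies at -1.22 before and -0.72 after the correction, while CD81 lies at 0.38 before and -0.06 after it.

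Among 22 genes of known tetraspanin partners, the integrin subunits ITGB1, ITGA6 and ITGAV fell and TIMP1 rose. Of the 21 that passed the filter, 2 rose, 6 fell and 13 did not pass the edgeR test, beside 15.0% of all tested genes that rose and 18.7% that fell. The median log2 fold change was -0.05, as over all genes. ITGB1, the beta subunit shared by many integrins, had 192, 246 and 234 CPM in treated libraries and 572, 387 and 479 CPM in control libraries. Treated libraries all lay below controls, and the log2 fold change was -1.10 ± 0.13 (adjusted p = 1.6e-05). ITGA6, a laminin-binding alpha subunit that CD151 binds, had 43.1, 51.9 and 52.9 CPM in treated libraries and 103, 69.5 and 96.5 CPM in control libraries. It too was separated between the groups, with a log2 fold change of -0.86 ± 0.13 (adjusted p = 0.000146). ITGAV, an alpha subunit of receptors for fibronectin and vitronectin, fell by 0.82 ± 0.16 on the log2 scale (adjusted p = 0.000973), and CD47, a receptor that signals to phagocytes, by 0.50 ± 0.13 (adjusted p = 0.00607).

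TIMP1, an inhibitor of metalloproteases that binds CD63, had 995, 863 and 869 CPM in treated libraries and 538, 664 and 644 CPM in control libraries. All treated libraries lay above all controls, and TIMP1 rose by 0.56 ± 0.11 (adjusted p = 0.000785). IGSF8, an immunoglobulin-family partner of CD9 and CD81, rose by 0.32 ± 0.10 (adjusted p = 0.0176). The most expressed partners that did not pass were ITGB4, at 0.10 ± 0.12, and ITGA3, the other laminin-binding alpha subunit of CD151, at 0.09 ± 0.11. ADAM10, chosen after its values were seen because TSPAN14, TSPAN15 and TSPAN17 escort it, had 8.47, 18.0 and 18.5 CPM in treated libraries and 28.3, 19.9 and 26.9 CPM in control libraries. The groups did not overlap, EPZ-1 was far below the other treated libraries, and the log2 fold change was -0.74 ± 0.22 (adjusted p = 0.0137). Without EPZ-1 it was -0.45 and not past the threshold, which it also missed without NC-1 or NC-3. EPCAM, the TSPAN8 partner, had 1.22, 0.656 and 1.37 CPM in treated libraries and 2.59, 1.43 and 1.66 CPM in control libraries, without overlap, and did not pass (log2 fold change -0.81 ± 0.40). CLDN7, which encodes claudin-7, the other TSPAN8 partner named above, had 86.9, 74.8 and 75.3 CPM in treated libraries and 77.9, 83.4 and 76.6 CPM in control libraries. Its groups overlapped, and the log2 fold change was -0.01 ± 0.11.

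ITGB1, ITGA6 and TIMP1 were past the threshold in all 24 alternative fits, with adjusted p up to 0.00139 for ITGB1, 0.0179 for ITGA6 and 0.0485 for TIMP1. With the GC and length correction their log2 fold changes were -0.58, -0.46 and 0.30. ITGAV, CD47, ADAM10 and IGSF8 did not pass with the correction, at -0.28, 0.04, -0.19 and -0.11. In that fit 3 partners rose and 6 fell, beside 5.40% and 5.58% of all tested genes. Those that fell included ITGB4, at -0.31, ITGA3, at -0.28, and CLDN7, at -0.34. The collagen-binding integrin subunit ITGA2 rose in it, at 0.48 ± 0.09, against -0.03 ± 0.14 without the correction, so integrin subunits moved in both directions. CLDN7 and ITGA2 were chosen after their values were seen. Uncorrected, 1 partner rose without EPZ-1, EPZ-3 or NC-3, where IGSF8 missed the threshold, beside 1350, 1756 and 1592 of all genes. In the corrected fit ITGB4 and ITGA3 missed it without EPZ-2, EPZ-3 or NC-2, and CLDN7 without EPZ-3.

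Of 26 genes of multivesicular endosomes and exosome release, all tested, 6 rose, 5 fell and 15 did not pass, with a median log2 fold change of -0.19. Of all tested genes 15.0% rose and 18.7% fell, so nothing particular to this list is read from its counts. HGS and VPS28, components of the complexes that sort cargo into multivesicular endosomes, rose by 0.44 ± 0.10 (adjusted p = 0.00222) and 0.44 ± 0.10 (adjusted p = 0.00355). FLOT2, a membrane-microdomain protein, rose by 0.42 ± 0.10 (adjusted p = 0.00396), and VPS4A, an ATPase that disassembles the sorting complexes, by 0.40 ± 0.11 (adjusted p = 0.00871). PDCD6IP and SDCBP, which encode the adaptors ALIX and syntenin, fell by 0.58 ± 0.12 (adjusted p = 0.00124) and 0.61 ± 0.13 (adjusted p = 0.00169). LAMP2, a lysosomal membrane protein, fell by 0.48 ± 0.11 (adjusted p = 0.00273), and RAB27A, a GTPase of vesicle docking, by 0.45 ± 0.15 (adjusted p = 0.0258). VPS4B, chosen after its values were seen because VPS4A rose, fell by 0.47 ± 0.16 (adjusted p = 0.0289). Uncorrected, VPS4B missed the threshold without EPZ-1, EPZ-2, EPZ-3, NC-1 or NC-3. FLOT1 and LAMP1, the most expressed genes that did not pass, had log2 fold changes of 0.20 ± 0.10 and 0.06 ± 0.11. With the GC and length correction none of these genes named as changed passed. The 2 that rose then, beside 5.40% of all tested genes, were ARF6 at 0.51 and RAB11A at 0.29. Uncorrected, 3 of the 26 rose and 3 fell without EPZ-1, VPS4A and RAB27A missing the threshold. Without EPZ-3 or NC-3, 3 fell, RAB27A missing it. Of all genes, 1350 rose and 1884 fell without EPZ-1, and 2315 and 1973 fell without EPZ-3 and NC-3. Corrected, RAB11A passed only in full and without NC-2.

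**Figure D5:**
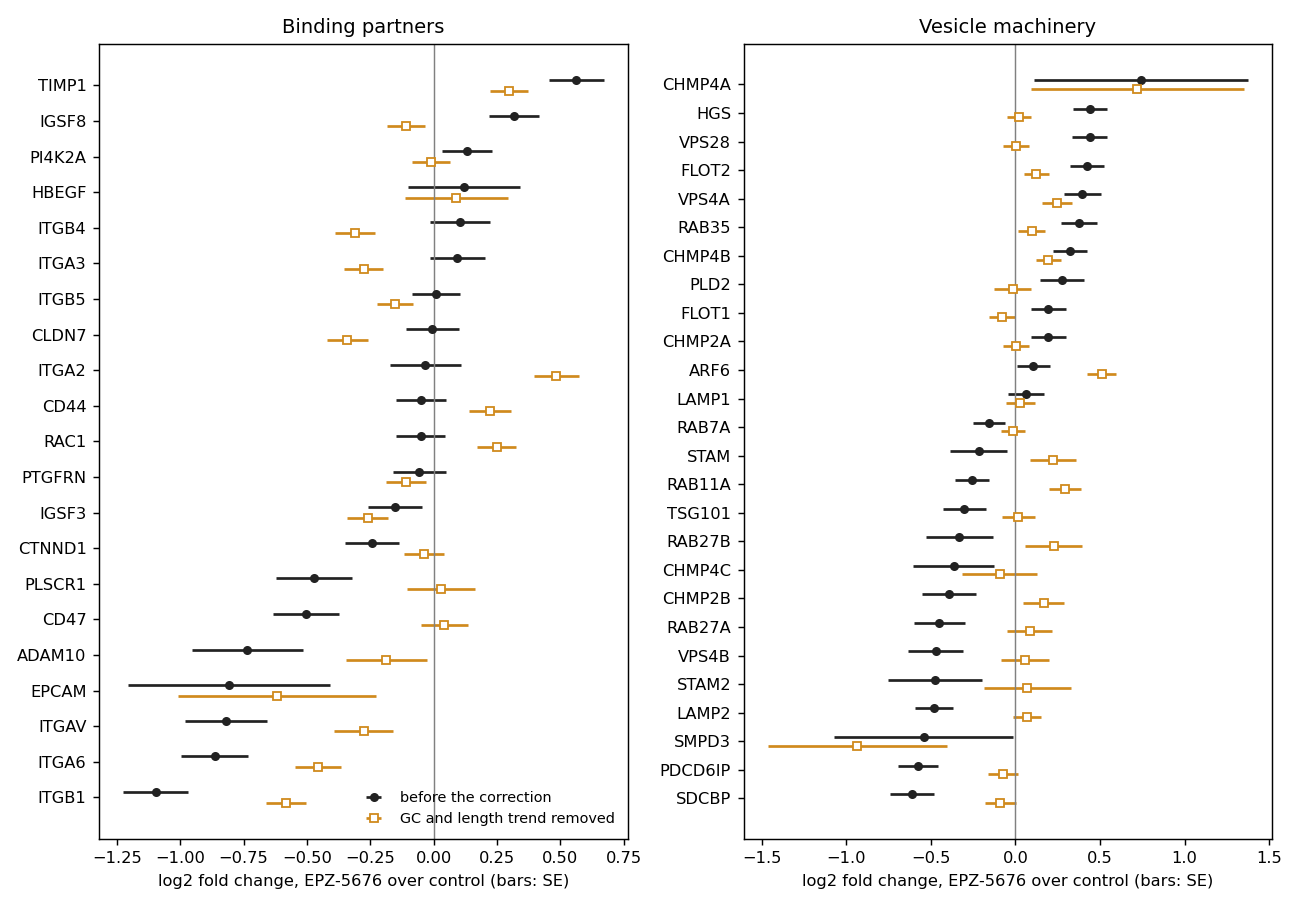
Log2 fold change, EPZ-5676 over control, with SE, of tetraspanin partner genes (left) and of vesicle machinery genes (right), before (black) and after (orange) the GC and length correction. Among partners ITGB1 lies lowest before the correction, at -1.10, and TIMP1 highest, at 0.56, while HGS lies at 0.44 and SDCBP at -0.61 before it and both close to 0 after it.

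The genes whose pattern over the 6 libraries was most like that of TSPAN8 were sought among 11566 genes by the mean absolute difference of centred log2 CPM. DBP, a transcription factor of the circadian clock, was closest, at 0.136, with 16.8, 13.3 and 16.6 CPM in treated libraries and 32.3, 35.9 and 35.8 CPM in control libraries. PPAT, an enzyme of purine synthesis, was at 0.142, PER2, a repressor of the circadian clock, at 0.168, CGA, the alpha subunit of glycoprotein hormones, at 0.169, and SPINK6, a serine protease inhibitor, at 0.172. The likeness was ranked over the same 6 libraries and carries no test. After the GC and length correction the log2 fold changes were -1.43 for DBP, -0.57 for PPAT, -1.12 for PER2, -0.84 for CGA and -1.10 for SPINK6, beside -0.72 for TSPAN8.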

How the data were processed

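RNA from 3 EPZ-5676-treated and 3 control samples of SW1990 cells was sequenced, and the sample titles gave the groups. Per the labels' protocols, polyadenylated RNA was selected and the dUTP method kept strand. The submitters' processing notes name HISAT2 2.2.1 and GRCh38 (hg38). The authors deposited whole-number read counts per gene that had not been normalized. Which tool counted the reads, with which strand setting and annotation release, is not stated by any source at hand. Coordinates of all 58735 genes were those of GENCODE release 29, from which GC content and the longest transcript were taken.

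The test was edgeR 4.0.16 (R 4.3.3), quasi-likelihood and two-sided, with robust dispersions, TMM scaling and filterByExpr (minimum count 10). Adjustment was by Benjamini-Hochberg over 15496 genes, and the common dispersion was 0.0301. SE is the size of the log2 fold change divided by the square root of F. The fit was tested on simulated data with known changes, and the correction on simulated data with a smooth GC trend, alike in all treated libraries, added; trends that differ between libraries were not simulated. TPM was computed from the counts and the table's gene length. The correction fitted natural splines (5 degrees of freedom for GC content and for length) to the deviation of log2 CPM (prior count 2) in each library and used the trend as an offset. The 24 alternatives comprised RLE scaling, upper-quartile scaling, filters, DESeq2 1.42.0, limma-voom (limma 3.58.1), a replicate block, corrections and the omission of each library. No libraries were alike within sampling noise.

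The members, gene lists and alternatives were chosen with earlier results of these data known. All members are named; from the partner and vesicle lists, up to 4 called genes of smallest p in each direction and the 2 most expressed not called; from all genes, the 5 most like TSPAN8 whose mean log2 CPM was 1 or more. Figures were drawn with matplotlib 3.10.9.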

Additional observations from a re-analysis of the deposited data

How the results depend on the processing

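TSPAN8 was lower in treated cells in all 24 alternatives, with log2 fold changes of -1.39 to -1.03 in the 15 without a GC correction and -0.95 to -0.51 in the 9 with one; it was past the threshold in 15 and in 2 of these. Correcting GC content and length, GC content alone, or both with the replicate block left 0, 0 and 0 members higher and 1, 0 and 0 lower. The same fits left 2, 2 and 1 other tetraspanins higher and 1, 0 and 1 lower, 2, 1 and 1 vesicle genes higher and 0, 0 and 0 lower, and 837, 762 and 689 of all genes higher and 864, 730 and 685 lower. With the replicate block alone, 1 partner rose and 3 vesicle genes fell. Deviations of same-numbered treated and control libraries correlated at -0.11, -0.09 and 0.05, and those of the other pairs at -0.080 to 0.15. Such values cannot show whether same-numbered samples were handled together, and the labels do not state it. Under these 3 corrected fits CD81 was at -0.063, -0.062 and -0.064, CD82 at -0.058, -0.050 and -0.053 and CD151 at -0.050, -0.048 and -0.050; CD63 was at -0.0061 with GC alone and TSPAN14 at 0.21 with length alone; the cause was not tested. Leaving out 1 library, without and with the correction, gave 0 to 3 members higher and 0 to 1 lower, 0 to 5 other tetraspanins higher and 0 to 2 lower, 1 to 3 partners higher and 2 to 6 lower, 1 to 6 vesicle genes higher and 0 to 6 lower, and 397 to 2780 of all genes higher and 512 to 3167 lower. The log2 fold changes then ran from -0.031 to 0.17 for TSPAN3, -0.17 to 0.051 for TSPAN14, -0.040 to 0.11 for CD9, -0.034 to 0.24 for CD63, -0.10 to 0.45 for CD81, -0.12 to 0.33 for CD82 and -0.072 to 0.44 for CD151. Correcting length alone gave 2784 genes higher and 2228 lower, against 2326 and 2899 without correction. TSPAN8 rests on 87 to 326 reads per library, the fewest of the 10 genes.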

Other observations

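Of the 11 other tested genes within 1000000 bases of TSPAN8 on chromosome 12, 3 fell and 0 rose with edgeR's quasi-likelihood test, beside 18.7% and 15.0% of all tested genes, and the 11 ranged from -0.90 to 0.41 in log2 fold change. TBC1D15, a regulator of RAB GTPases, had a log2 fold change of -0.90 (adjusted p = 0.00122). CNOT2, a subunit of the deadenylase complex that shortens mRNA tails, had -0.59 (adjusted p = 0.00843) and missed the threshold without NC-1, at -0.47. ZFC3H1, a zinc-finger protein of nuclear RNA decay, had -0.58 (adjusted p = 0.0163) and missed it without EPZ-1 or NC-3. With the GC and length correction these 3 had log2 fold changes of -0.34, -0.02 and -0.07 and did not pass.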
